A study of Drosophila melanogaster with 15 samples.

Results

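The Dpr, DIP, Beat and Side families are cell surface proteins of the immunoglobulin superfamily, and their RNA was measured in the heads of male *Drosophila melanogaster*. Members were taken by FlyBase symbol (*dpr* followed by a number, *DIP-*, *beat-*, *side* or *side-*), which gave 54 of the 17453 gene identifiers in the files, namely 21 Dpr, 11 DIP, 14 Beat and 8 Side genes. The rule uses symbols alone. Heads came from naive males aged 5 days, with about 100 heads pooled for each of the 15 libraries of polyadenylated RNA. The control, labelled WT, is a Bloomington stock that carries the mutant alleles y1, w1118 and DNAlig4169 and, at the ZH-2A site, the transgene M{Act5C-Cas9.P.RFP-}, in which an *Act5C* promoter active in most cells drives Cas9. Mutations of *yellow* and *white* are shared by the deletion strains. The 5 deletion strains were made with CRISPR/Cas9 and received no treatment. *CBS-/-*(5) and *CBS-/-*(8) lack *CBS*, which encodes cystathionine beta-synthase, and *CSE-/-* lacks *CSE*, which encodes cystathionine gamma-lyase. *CBS-/-CSE-/-*(1) and *CBS-/-CSE-/-*(2) lack both genes and are called double deletion strains here. Control, *CBS-/-*(5) and *CBS-/-CSE-/-*(2) have 2 libraries each and the other 3 strains have 3 each. *CSE-/-* is represented by 1 strain, so that its deletion and its background cannot be told apart. The control is also 1 strain, so its background cannot be told apart from a deletion in any comparison with it.

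Proteins of these families sit on the surface of neurons and their targets and recognise each other in selective pairs across the gap between cells. Dpr proteins bind DIP proteins, and Beat proteins, several of which were first studied as axon guidance receptors, bind Side proteins. Among the well known pairs are DIP-alpha with Dpr6 and Dpr10, DIP-gamma with Dpr11, DIP-delta with Dpr12, Side with Beat-Ia, and Side-IV with Beat-IIa and Beat-IIb. In the developing visual system of the fly, different neuron types carry different sets of these proteins, and pairs such as DIP-alpha with Dpr6 and Dpr10 or DIP-gamma with Dpr11 take part in layer choice, synapse formation and survival of neurons. A head library mixes all of these cells, so fewer cells of a type and less RNA per cell cannot be told apart.

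Libraries held 6850445 to 21144213 reads assigned to genes (median 10285508). Levels are given as CPM, the count of a gene per 1000000 assigned reads of its library, scaled by TMM factors. A floor of 3 counts stood for 0.142 to 0.438 CPM before this scaling. *CBS* was at 3 to 55 counts in the libraries labelled as lacking it, against 1217 and 1396 in the control, and *CSE* was at 10 to 25 counts where deleted, against 233 and 262. Head markers were present in every library, with summed levels of 42420 to 67710 CPM for 18 photoreceptor genes, 501.1 to 1001 CPM for 19 genes of all neurons and 1930 to 3117 CPM for 14 glial genes. Markers of another tissue differed between strains. Summed midgut genes (32 genes, mostly digestive proteases and amylases) lay at 223.0 and 581.8 CPM in *CBS-/-*(5) and between 2462 and 46930 CPM in every other library, the control included at 8348 and 23180 CPM.

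Members were expressed at low levels. Per kilobase of exon, the highest member of each family in the control heads was *dpr21* at a mean of 16.9 CPM per kb, *side-VIII* at 10.5, *beat-IIa* at 9.34 and *DIP-gamma* at 4.35. *DIP-gamma* encodes a receptor for Dpr11, *beat-IIa* encodes a partner of Side-IV, and for *dpr21* and *side-VIII* less is known. The control libraries, replicates 1 and 3, gave 20.7 and 13.04 CPM per kb for *dpr21*, 12.5 and 8.53 for *side-VIII*, 11.5 and 7.15 for *beat-IIa* and 6.25 and 2.46 for *DIP-gamma*. Compared within a library, these 4 genes thus had the same order in both. *side-VIII* lay only a little above *beat-IIa* in each, and 2 libraries are few to settle that order. Below *beat-IIa* came *dpr5* at 7.62 CPM per kb and *dpr7* at 6.58, both from the family that DIP proteins bind. The order depends on the scale, since without division by exon length *side-VIII* was first at 57.8 CPM, followed by *beat-IIa* at 29.7 and *dpr21* at 16.7.

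At the other end were members whose products are among the best studied. *DIP-alpha*, with 5 to 17 counts per library, was at 0.143 CPM per kb in the control, and its partners *dpr6* and *dpr10* were at 0.148 and 1.80. *DIP-delta* had 1 to 12 counts per library and 0.220 CPM per kb, while the gene of its partner, *dpr12*, was at 3.47. *DIP-iota* had 2 to 19 counts and *DIP-zeta* 3 to 21. *beat-IIIa* had 0 counts in all 15 libraries, which allows a level of up to 0.142 to 0.438 CPM before TMM scaling. Every one of its 4457 exonic bases is also annotated to *CG34106*, a gene of the same span and strand (2L:17131024-17173118). Reads that fit more than 1 gene were left unassigned by the counting, 390786 to 1241483 per library. If the annotation used for counting has the same overlap, the count there is 0 whatever the expression. Another 7 members share part of an exon with a neighbouring gene, *side-IV* (17.5% of its exonic bases) and *dpr4* (15.7%) with antisense RNAs and *DIP-theta* (12.6%) with a long non-coding RNA of its own strand. Reads of the shared bases may likewise have been left unassigned, so these values may be too low. For antisense neighbours this depends on the strand setting of the counting, which is not given in the sources used here.

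**Figure D1:**
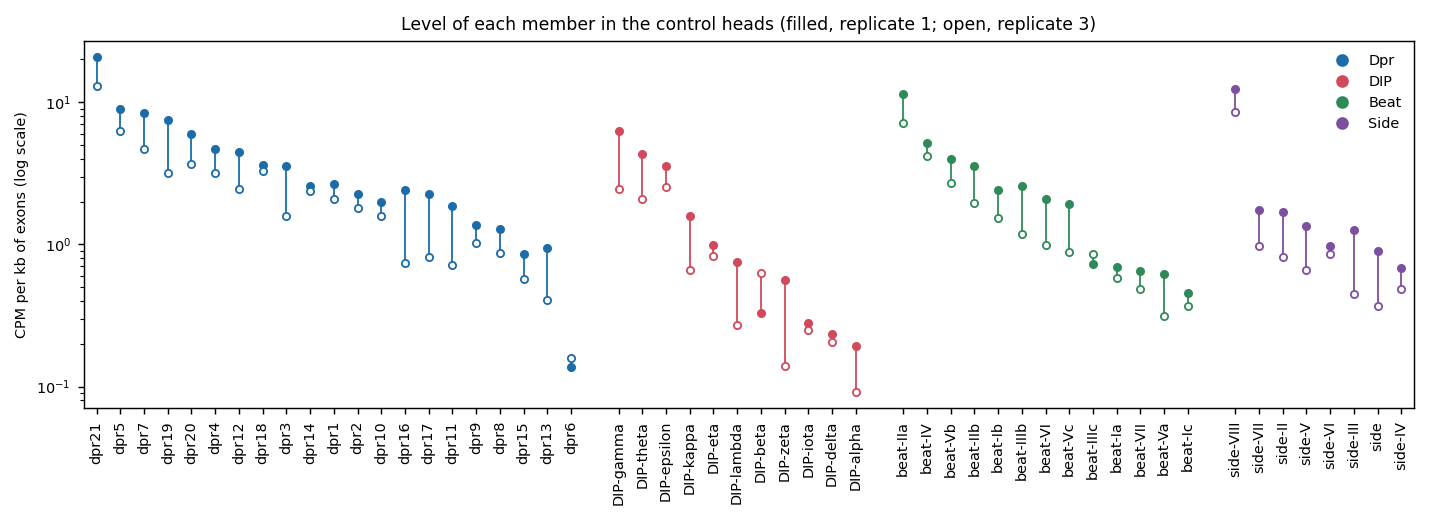
Level of each of the 54 members in the 2 control libraries, in CPM per kilobase of exon on a log axis, sorted within each family by the mean (filled points, replicate 1; open points, replicate 3; the line joins them; *beat-IIIa*, at 0, is not drawn). *dpr21*, *DIP-gamma*, *beat-IIa* and *side-VIII* lead their families, and replicate 3 is the lower point for most members.

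The members also differed between replicates of one strain. In the control, 50 of the 53 members with counts were lower in replicate 3 than in replicate 1, with a median log2 difference of -0.64. A similar spread was found in *CSE-/-*, where 45 of 53 were lower in replicate 4 than in replicate 3 (median -0.73), and in *CBS-/-CSE-/-*(1), where 47 were lower in replicate 3 than in replicate 1 (median -0.55). The 2 libraries of *CBS-/-*(5) were close, at a median difference of 0.06. Expressed relative to the mean of all libraries, the member median was 0.37 and 0.46 in *CBS-/-*(5), 0.10, 0.42 and -0.07 in *CBS-/-*(8), 0.04, -0.03 and -0.55 in *CBS-/-CSE-/-*(1), 0.03 and -0.32 in *CBS-/-CSE-/-*(2), -0.07, 0.40 and -0.36 in *CSE-/-*, and 0.26 and -0.46 in the control. The control libraries spanned most of this range. All 5 double deletion libraries lay below 4 of the 5 *CBS-/-* libraries, and 3 of them lay above the remaining one, *CBS-/-*(8) replicate 5. Genes of all neurons had relative medians of 0.65 and 0.32 in the control, -0.04 to 0.37 in the *CBS-/-* libraries, -0.75 to -0.13 in the double deletion libraries and -0.32 to 0.29 in *CSE-/-*, and the part of these cell markers in the levels of the members was not tested.

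**Figure D2:**
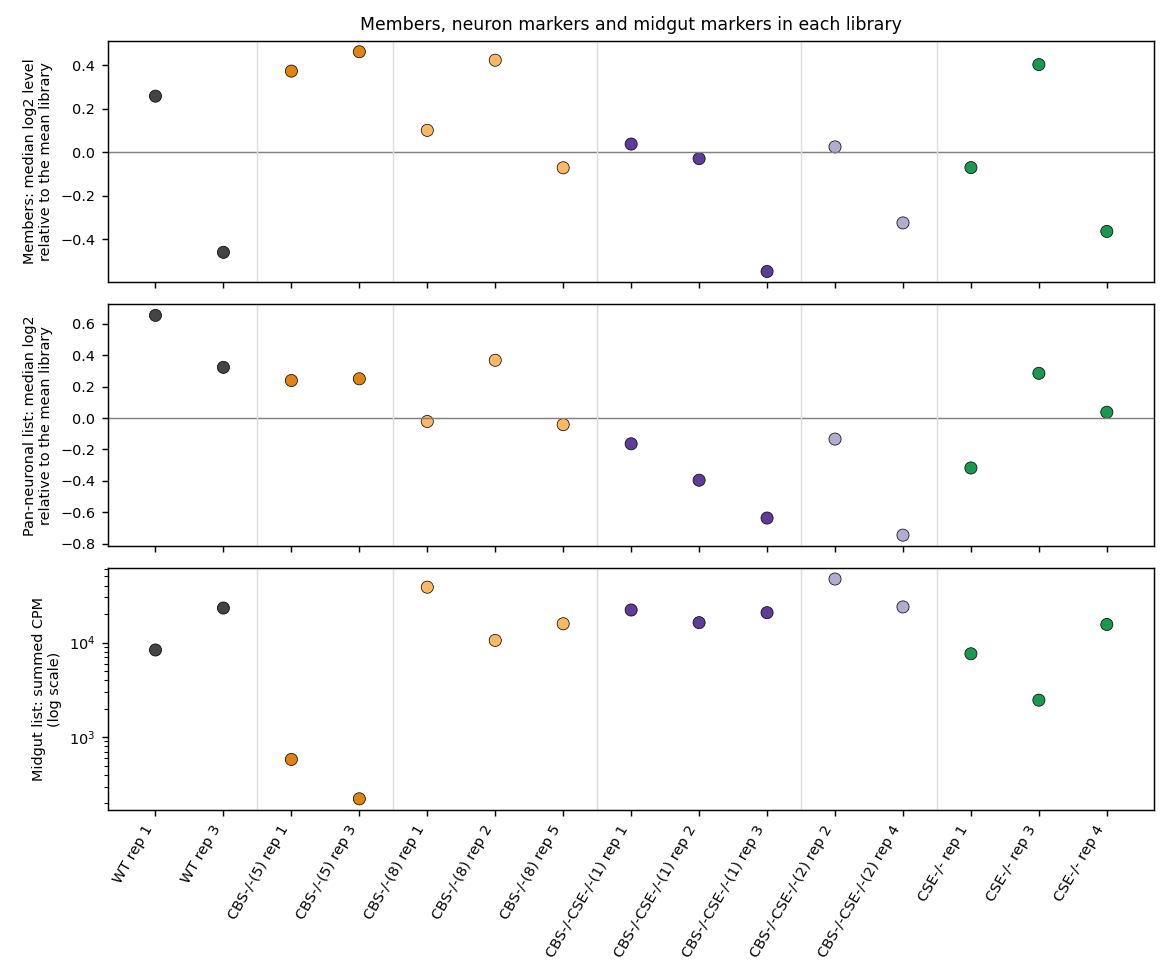
Median log2 level of the members (top) and of 19 genes of all neurons (middle) in each library relative to the mean library, and summed level of 32 midgut genes in CPM on a log axis (bottom), 1 point per library coloured by strain. The member medians of the control libraries are 0.26 and -0.46, and midgut genes are lowest in the *CBS-/-*(5) libraries at 223.0 and 581.8 CPM.

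The first question was whether members differed between each deletion strain and the control. Each strain was fitted against the control with edgeR's quasi-likelihood test, and adjusted p-values (Benjamini-Hochberg over all genes tested) under 0.05 were called. In *CBS-/-*(5), 51 members passed the filter on low counts, 1 was lower (*dpr9*) and 0 were higher, and of all 9206 genes tested 7.74% were called lower and 1.6% higher. In *CBS-/-*(8), 51 were tested, 1 was lower (again *dpr9*) and 0 were higher, against 4.67% lower and 1.76% higher of all genes. No member was called in *CBS-/-CSE-/-*(1) among 49 tested (background 3.03% lower and 1.15% higher), in *CBS-/-CSE-/-*(2) among 51 (2.36% and 1.1%) or in *CSE-/-* among 50 (0.565% and 0.213%). At an unadjusted p under 0.05 edgeR gave 8 members lower and 0 higher in *CBS-/-CSE-/-*(1), 4 lower and 1 higher in *CBS-/-CSE-/-*(2) and 1 lower and 0 higher in *CSE-/-*. Over all genes the shares at this unadjusted p were 11.5%, 11.8% and 4.98% lower and 7.1%, 9.65% and 2.12% higher. DESeq2 called 1 member in the first of these strains and 0 in the other two. Absence of a call does not show equal levels, because the strains have 2 or 3 libraries and the control libraries differ.

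*dpr9*, which encodes a member of the Dpr family of DIP partners, was the single member called in more than 1 strain. It lies at 3R:15054930-15077206 (minus strand, FBgn0038282, BDGP6) with 4826 exonic bases, of which the longest annotated 3′ UTR takes 2254. Its levels in the control were 6.59 and 4.98 CPM (53 and 30 counts). They were 2.29 and 2.11 CPM in *CBS-/-*(5), 1.94, 2.70 and 2.10 in *CBS-/-*(8), 0.865, 1.59 and 2.56 in *CBS-/-CSE-/-*(1), 2.15 and 1.52 in *CBS-/-CSE-/-*(2) and 1.47, 4.05 and 3.42 in *CSE-/-*. Every one of the 13 deletion libraries thus lay below both control libraries, and the nearest was *CSE-/-* replicate 3. The share of all genes with this pattern was not counted. In *CBS-/-*(5) *dpr9* was 2.60-fold lower (log2 -1.38 ± 0.31, SE, edgeR adjusted p = 0.0491) and in *CBS-/-*(8) 2.58-fold lower (-1.37 ± 0.37, adjusted p = 0.0489). The values in the other strains were -1.80 ± 0.45 in *CBS-/-CSE-/-*(1) (adjusted p = 0.0765), -1.68 ± 0.38 in *CBS-/-CSE-/-*(2) (0.081) and -0.97 in *CSE-/-* (0.772), none of them called. Both calls lie close to the threshold, rest on 13 to 53 counts per library and are lost with DESeq2 (adjusted p = 0.0916 and 0.0788) and without either control library. The 5 comparisons share the control libraries and are not independent of each other. These libraries come from 1 strain, so its background cannot be told apart from the deletions for *dpr9*.

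Members other than *dpr9* were mostly above the control in the *CBS-/-* strains. In *CBS-/-*(5), 40 of 51 were above zero, the median log2 fold change was 0.58 (0.04 over all genes), and 15 had an unadjusted p under 0.05 (12.5% of all genes in that direction) although none passed adjustment. All 8 Side members, from the family that holds known ligands of Beat proteins, were above zero there, from 0.34 to 1.22. The largest values were 1.22 ± 0.45 for *side-III* (adjusted p = 0.134), 1.17 ± 0.31 for *side-VII* (0.0681), 1.16 ± 0.40 for *DIP-gamma* (0.122) and 1.13 ± 0.26 for *dpr20* (0.0525), all from edgeR. *side-VII* was at 12.8 and 14.4 CPM in *CBS-/-*(5) against 7.71 and 4.32 in the control, and *dpr20* was at 29.2 and 27.9 against 16.3 and 9.96. For both genes the 2 strains did not overlap, but groups of 2 libraries often do not, and the share over all genes was not counted. In *CBS-/-*(8), 33 of 51 were above zero with a median of 0.24 (0.04 over all genes). These medians follow the control library used. They were 0.23 in *CBS-/-*(5) and 0.003 in *CBS-/-*(8) without control replicate 3, and 0.94 and 0.71 without control replicate 1.

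In the double deletion strains the members lay slightly below the control, with medians of -0.17 in *CBS-/-CSE-/-*(1) (28 of 49 below zero) and -0.12 in *CBS-/-CSE-/-*(2) (29 of 51), and in *CSE-/-* the median was 0.15 (19 of 50 below zero). Over all genes these medians were 0.02, 0.005 and 0.008. Without control replicate 1 the 3 medians became 0.32, 0.36 and 0.50, and without control replicate 3 they became -0.48, -0.45 and -0.23. The direction turned also to 0.10 without *CBS-/-CSE-/-*(1) replicate 3, to 0.04 without *CBS-/-CSE-/-*(2) replicate 4 and to -0.19 without *CSE-/-* replicate 3, so no direction of these medians held under every library left out. *beat-IIIc*, of the Beat family, had the lowest log2 fold change in *CBS-/-CSE-/-*(2), at -1.89 ± 0.43 (adjusted p = 0.0829), and *DIP-iota* the highest at 1.46 ± 0.59 (0.226), on 13 and 19 counts against 3 and 2 in the control, and neither was called.

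**Figure D3:**
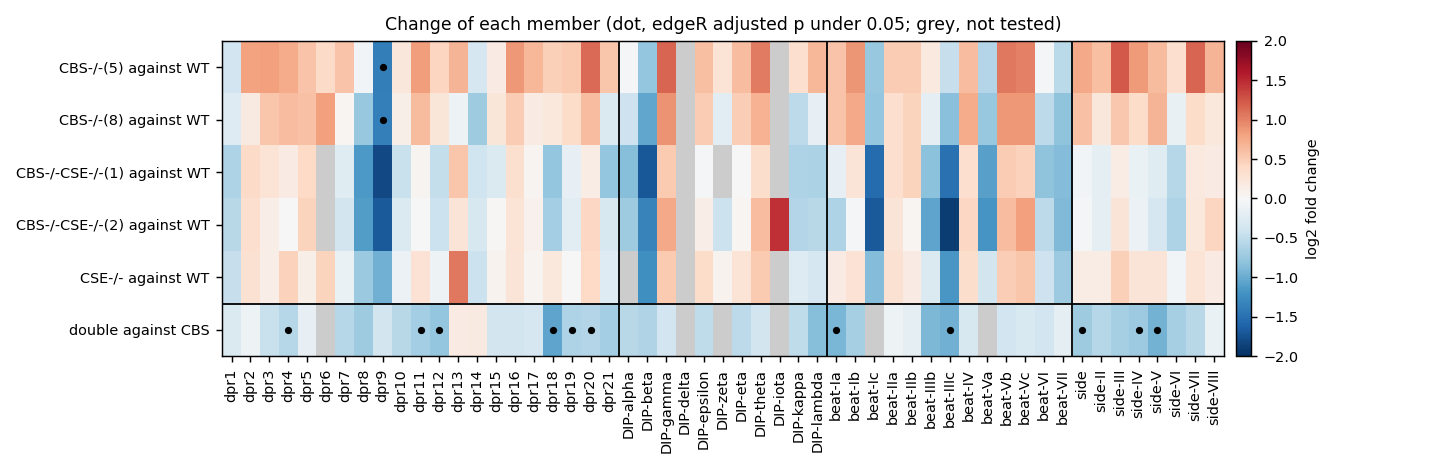
Log2 fold change of each member in the 5 strain comparisons with the control and, in the bottom row, in double deletion against *CBS-/-*, 5 libraries each (columns, members grouped by family; red above and blue below zero; dots, edgeR adjusted p under 0.05; grey, not tested). *dpr9* carries both calls of the upper rows, and the bottom row is blue in 45 of 47 columns with 11 dots.

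Of the 48 members tested in all 5 strain comparisons, 10 were below the control in each of them and 18 above in each. The share of all genes with the same sign in all 5 was not counted. Because the comparisons share the control libraries, their signs are not independent. Those below were *dpr1*, *dpr8*, *dpr9*, *dpr14*, *DIP-beta*, *beat-Ic*, *beat-IIIc*, *beat-Va*, *beat-VI* and *beat-VII*. Those above included *DIP-gamma*, *DIP-theta*, *beat-IIa*, *beat-IIb*, *beat-Vb*, *beat-Vc*, *side-III*, *side-VII* and *side-VIII*. The longest annotated 3′ UTR, which the choice of members did not use, differed between these sets with some overlap. It spanned 1658 to 4052 bases (median 2213) in the 10 below and 279 to 2284 bases (median 682) in the 18 above. Across members, Spearman's rho of log2 fold change with 3′ UTR length was -0.52 in *CBS-/-*(5), -0.40 in *CBS-/-*(8), -0.57 in *CBS-/-CSE-/-*(1), -0.59 in *CBS-/-CSE-/-*(2) and -0.39 in *CSE-/-*. Over all protein-coding genes tested it was 0.27, 0.19, -0.20, -0.22 and 0.12. *side* was an exception, with a 3′ UTR of 7185 bases and a mean log2 fold change of 0.28. These are descriptions across 49 to 51 genes that share the same control libraries, and genes are not replicates. Members as a group have long transcripts, with a median of 3515 exonic bases against 1727 over annotated protein-coding genes, and the part of length in these values was not tested.

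**Figure D4:**
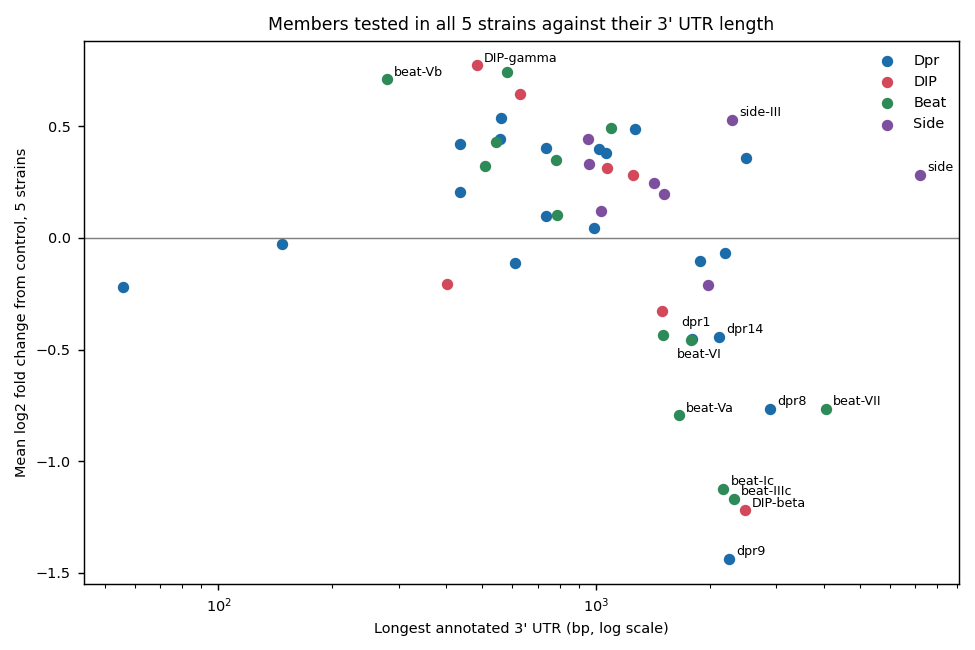
Mean log2 fold change from the control over the 5 strains (vertical axis) against the longest annotated 3′ UTR in bases (horizontal log axis) for the 48 members tested in all 5 strains, coloured by family. The 10 members below the control in every strain have 3′ UTRs of 1658 to 4052 bases and the 18 above it in every strain have 279 to 2284 bases.

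What loss of *CSE* adds to loss of *CBS* was asked by setting the 10 libraries of the 4 strains without *CBS* against each other, 5 of them from the double deletion, with no part for the control. Each side pooled 2 strains as if their libraries were independent, so the p-values do not measure the spread between strains. With 2 strains per side, strain background cannot be told apart from loss of *CSE*. Of 54 members 47 passed the filter (*dpr6*, *DIP-delta*, *DIP-zeta*, *DIP-iota*, *beat-Ic*, *beat-IIIa* and *beat-Va* did not). Lower in the double deletion were 11 members, which is 23.4% of those tested, and higher were 0, while over all 9230 genes 14.4% were called lower and 13.3% higher. The sign was negative for 45 of the 47, with *dpr13* and *dpr14* the exceptions, and the median log2 difference was -0.55, against -0.06 over all genes, of which 53.2% were negative. The 11 were 6 of 20 Dpr (*dpr4*, *dpr11*, *dpr12*, *dpr18*, *dpr19* and *dpr20*), 2 of 11 Beat (*beat-Ia* and *beat-IIIc*), 3 of 8 Side (*side*, *side-IV* and *side-V*) and 0 of 8 DIP members. For DIP, edgeR gave unadjusted p under 0.05 for *DIP-epsilon* (-0.51, adjusted p = 0.066) and *DIP-lambda* (-0.85, 0.0827). The adjusted p-values of the 11 lay between 0.0231 and 0.0453.

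*dpr18* (X:16063738-16070304, FBgn0030723), of the Dpr family, showed the largest difference. It was at 9.91 and 14.9 CPM in *CBS-/-*(5) and 5.82, 13.2 and 12.6 in *CBS-/-*(8), against 6.31, 5.80 and 3.67 in *CBS-/-CSE-/-*(1) and 5.89 and 5.55 in *CBS-/-CSE-/-*(2). *CBS-/-*(8) replicate 1 alone overlapped the double deletion libraries, and the control libraries lay between, at 9.45 and 8.63 CPM. The double deletion was 2.08-fold lower (log2 -1.06 ± 0.24, edgeR adjusted p = 0.0231). *dpr11*, the gene of the DIP-gamma partner Dpr11, was at 9.63 and 12.02 CPM and 7.76, 10.98 and 9.76 CPM in the *CBS-/-* strains and at 8.04, 7.08 and 3.85 CPM and 7.21 and 5.09 CPM in the double deletion strains, a 1.61-fold difference (-0.69 ± 0.21, adjusted p = 0.037) with overlap at 1 library of each. The control libraries, at 8.70 and 3.32 CPM, lay above and below all of the double deletion libraries. *DIP-gamma* itself, at 31.3 and 29.3 CPM and 26.9, 26.9 and 23.2 CPM against 24.3, 23.0 and 11.7 CPM and 24.1 and 22.8 CPM, differed by -0.38 and was not called.

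*dpr12* (2R:5804712-5860831), whose product pairs with DIP-delta, was at 19.7 and 24.2 CPM in *CBS-/-*(5) and 19.2, 24.6 and 14.8 CPM in *CBS-/-*(8). In the double deletion strains it was at 17.3, 11.2 and 6.78 CPM and 15.8 and 8.83 CPM, 1.72-fold lower (-0.78 ± 0.25, edgeR adjusted p = 0.0422) with overlap. *DIP-delta*, at 12 counts or fewer in every library, could not be compared. *dpr19*, a further Dpr gene, was at 20.0 and 20.8 CPM and 16.3, 25.7 and 14.2 CPM against 13.3, 14.9 and 9.99 CPM and 15.0 and 9.94 CPM (-0.62 ± 0.19, adjusted p = 0.0383), again with overlap. *dpr20* is the single Dpr gene for which every double deletion library lay below every *CBS-/-* library. It was at 29.2 and 27.9 CPM and 19.8, 21.7 and 19.8 CPM against 17.7, 16.3 and 9.62 CPM and 19.4 and 16.4 CPM (-0.58 ± 0.19, adjusted p = 0.0453), with the control at 16.3 and 9.96 CPM. *dpr20* falls just short of the size that named a gene in full and was set out after its values were seen. *dpr4* was at -0.56 ± 0.16 (adjusted p = 0.033), also below that size, and shares exonic bases with an antisense RNA.

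Among Beat and Side members the receptor and ligand of one known pair were both lower. *side* (3R:27375088-27437482), which encodes a ligand for motor axons, was at 11.7 and 13.8 CPM in *CBS-/-*(5) and 12.5, 12.9 and 9.09 CPM in *CBS-/-*(8), against 9.94, 7.39 and 4.49 CPM and 9.50 and 5.38 CPM in the double deletion strains. The difference was 1.64-fold (-0.71 ± 0.23, edgeR adjusted p = 0.0412), and the groups overlapped. *beat-Ia* (2L:16049965-16081684), the gene of its receptor, was at 3.39 and 2.02 CPM and 2.83, 2.88 and 2.58 CPM against 1.56, 2.16 and 1.10 CPM and 1.32 and 1.11 CPM (-0.91 ± 0.25, adjusted p = 0.0304). One double deletion library of *beat-Ia* overlapped the lowest *CBS-/-* library, and its counts were 12 to 42 in these 10 libraries. *side-IV*, the gene of the ligand of Beat-IIa and Beat-IIb, was at 5.59 and 5.23 CPM and 3.13, 5.06 and 3.54 CPM against 3.20, 2.87 and 2.11 CPM and 2.84 and 2.75 CPM (-0.72 ± 0.21, adjusted p = 0.0334), and it overlapped in 1 library of each. Its receptor genes *beat-IIa* and *beat-IIb* differed by -0.10 and -0.18 and were not called.

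*side-V* (2R:23163012-23203973), the other member with no overlap between the groups, was at 8.07 and 9.998 CPM and 8.50, 11.9 and 7.94 CPM in the *CBS-/-* strains and 6.75, 5.03 and 3.02 CPM and 6.24 and 3.10 CPM in the double deletion strains. It was 1.93-fold lower (-0.95 ± 0.25, edgeR adjusted p = 0.0286). *beat-IIIc* was at 1.93 and 2.48 CPM and 0.746, 2.35 and 1.91 CPM against 1.38, 0.770 and 1.19 CPM and 0.971 and 0.702 CPM (-0.96 ± 0.32, adjusted p = 0.0441). *CBS-/-*(8) replicate 1 was the lowest but 1 of these 10 libraries for *beat-IIIc*, and the control was highest at 2.86 and 3.32 CPM. In all, 2 of 47 members (4.26%) had every double deletion library below every *CBS-/-* library, against 6.12% of all genes tested, a share near that background.

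**Figure D5:**
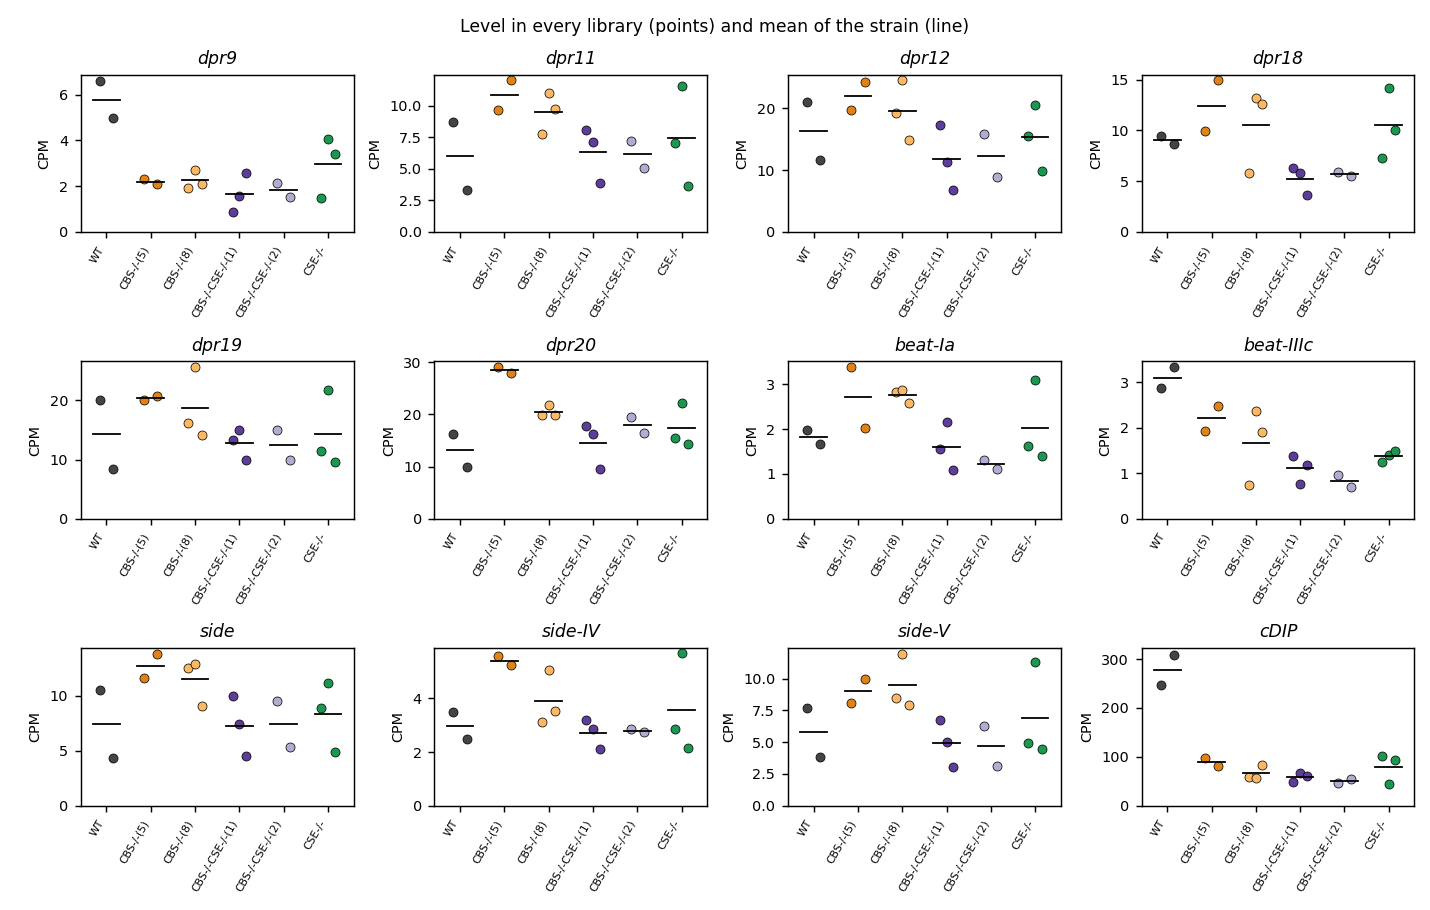
Level in CPM in every library (points) with the mean of each strain (line) for *dpr9*, 10 of the 11 members lower in double deletion than in *CBS-/-*, and *cDIP*; each vertical axis starts at 0. *dpr20* and *side-V* show no overlap between the 5 *CBS-/-* and the 5 double deletion points, and for *dpr9* and *cDIP* the control points lie above all 13 others. The share of all genes with the pattern of *dpr9* and *cDIP* was not counted.

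The count of 11 depended on single libraries. It was 0 without *CBS-/-CSE-/-*(1) replicate 3, without *CBS-/-CSE-/-*(2) replicate 4, without *CBS-/-*(5) replicate 3, or without *CBS-/-*(8) replicate 2 or 5, and 2 without *CBS-/-CSE-/-*(1) replicate 2 or *CBS-/-*(5) replicate 1, but 18 without *CBS-/-*(8) replicate 1. Length moved with this comparison, as Spearman's rho of the log2 difference with exon length was -0.50 over the 8926 protein-coding genes tested (-0.48 with 3′ UTR length) and -0.11 (-0.19) over the 47 members, whose transcripts are long. With offsets for exon length per library the count was 4, and the median log2 difference was -0.26. An interaction term, which tests whether the effects of both deletions add up on the log2 scale, was called for 0 of 53 members against 0.252% lower and 0.725% higher of all 9927 genes. At an unadjusted p under 0.05 it was negative for 7 members and positive for 0, against 12% and 12.9% of all genes. Its lowest value was -1.34 ± 0.61 for *dpr6* (edgeR adjusted p = 0.192), and the median over members was -0.60, which moved to -1.14 without control replicate 1 and -0.17 without control replicate 3.

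A list of 85 genes of other wiring proteins, written for comparison (81 matched), was taken from the same fits. In the strain comparisons 4, 6, 5, 4 and 0 of them were lower in *CBS-/-*(5), *CBS-/-*(8), *CBS-/-CSE-/-*(1), *CBS-/-CSE-/-*(2) and *CSE-/-*, of 80, 81, 81, 81 and 80 tested, and 0 were higher, with medians of 0.15, 0.02, -0.38, -0.31 and -0.12. Over all genes the shares called lower were 7.74%, 4.67%, 3.03%, 2.36% and 0.565%, so the list was below that share in *CBS-/-*(5) and *CSE-/-* and above it in the other 3 strains. *cDIP*, *Sema1a* and *tutl* were lower in each of the 4 strains without *CBS*. Without control replicate 1 the counts in these 4 strains were 3, 2, 1 and 1, and without control replicate 3 they were 0, 1, 1 and 1. *Sema1a* encodes a transmembrane semaphorin that guides axons, and it fell by 2.00 to 2.81 on the log2 scale. *tutl* encodes an immunoglobulin superfamily protein known from axon targeting in the eye, and it fell by 0.95 to 1.52. Between double deletion and *CBS-/-*, 23 of the 80 tested were lower and 2 higher, with a median of -0.47. Over all genes 14.4% were called lower and 13.3% higher there, with a median of -0.06. Among the listed genes that were lower were *robo1* and *Ptp69D*, which encode axon guidance receptors. The count of 23 became 0 without *CBS-/-CSE-/-*(2) replicate 4 or *CBS-/-*(8) replicate 2 and 37 without *CBS-/-*(8) replicate 1. In this comparison the members, at 23.4% lower and a median of -0.55, thus had values near those of the other wiring genes, and genes of all neurons had 8 of 19 lower with a median of -0.66.

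*cDIP* is set out in full because its secreted leucine-rich repeat protein is known to bind Dpr and DIP proteins, and it was singled out after its values were seen. It lies at 3R:21159238-21161092 (minus strand, FBgn0038865) with 1855 exonic bases. It was at 248 and 309 CPM in the control, 97.0 and 80.9 in *CBS-/-*(5), 59.7, 57.1 and 84.0 in *CBS-/-*(8), 48.6, 67.4 and 61.3 in *CBS-/-CSE-/-*(1), 45.4 and 55.4 in *CBS-/-CSE-/-*(2) and 101, 44.0 and 94.3 in *CSE-/-*. Both control libraries lay above all 13 deletion libraries, a pattern whose share over all genes was not counted. The background of the single control strain cannot be told apart from the deletions here. Deletion libraries ranged from 44.0 to 101 CPM, and both of *CBS-/-*(5) lay above every double deletion library. *cDIP* was 3.08-fold lower in *CBS-/-*(5) (log2 -1.63 ± 0.19, edgeR adjusted p = 0.00879), 4.21-fold lower in *CBS-/-*(8) (-2.07 ± 0.30, 0.00192), 4.71-fold lower in *CBS-/-CSE-/-*(1) (-2.24 ± 0.23, 0.00348) and 5.58-fold lower in *CBS-/-CSE-/-*(2) (-2.48 ± 0.23, 0.0111). The value in *CSE-/-*, -1.81 ± 0.38, was not called (adjusted p = 0.103), and that of the double deletion against *CBS-/-*, -0.45 ± 0.17, was not either (0.0666). Fat body genes, a tissue that secretes proteins into the blood, summed to 5490 and 7665 CPM in the control and 643.7 to 4045 CPM in the deletion strains, and their part in the level of *cDIP* was not tested. The call in *CBS-/-*(5) was lost without control replicate 3 (adjusted p = 0.080), and the calls of the other 3 strains held without each library in turn.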

How the data were processed

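Polyadenylated RNA of male heads was sequenced as 15 libraries made with a directional kit. The authors trimmed the reads with Trimmomatic, aligned them with STAR to dm6 in the PPLine pipeline and, according to the submitters' processing notes, used SAMtools and featureCounts. They deposited raw read counts per gene, and the strand setting and annotation release are not given in the sources used here. Summary lines of reads not assigned to a gene (8.65% to 13.9% of a library) were left out. Libraries were grouped by strain as labelled, 2 or 3 per strain. P-values measure the spread between these libraries, and counting error is a further limit for members with few counts. Replicates of a strain differed by far more than counting noise, and no library duplicated another.

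Each strain was compared with the control, the double deletion with *CBS-/-*, and the interaction was tested over all libraries by genotype, with edgeR 4.0.16 (R 4.3.3), using filterByExpr, TMM factors and glmQLFTest with legacy on. Benjamini-Hochberg adjustment covered every gene in a fit. Each SE was obtained from the fold change (log2) and the F statistic, as their ratio with F under a square root. Relative levels used log2 of CPM plus 0.5. CPM per kb used merged exons of the Ensembl annotation (release 115, BDGP6 patch 54), which gave symbols, coordinates and UTR lengths for 17179 of 17453 identifiers. On simulated counts with 200 changed genes, 84% of genes changed by 2-fold were recovered for *CBS-/-*(5) (9108 genes), and 100% for the double deletion against *CBS-/-* (9192 genes). The simulation gave every gene a dispersion of 0.02, not estimated from these libraries, and changed only well counted genes. Its shares thus do not measure power for the members, many of which have few counts. Alternatives were RLE normalization, DESeq2 1.42.0, other filters, legacy off, length offsets, thinning, 1 fit of all 15 libraries, strains as separate groups, a block for replicate number, a threshold of 0.01 and leaving out each library.

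The members and lists were chosen with earlier results of these data known. Values of every library are given for members called in at least 2 strains, or called between double deletion and *CBS-/-* with an absolute log2 difference of at least 0.58, and levels for the leading member of each family. *dpr20* and *cDIP* were added after their values were seen. Members, tables and plots were computed with Python 3.11.15, pandas 2.3.3 and matplotlib 3.10.9. No sequences were analysed here.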

Additional observations from a re-analysis of the deposited data

Results flagged for a closer look

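Within the 5 *CBS-/-* and the 5 double deletion libraries each, 106 groups of member values were searched for a library far from the other 4, and 8 were found. About 5% of groups would be marked in this way without any real difference. *CBS-/-CSE-/-*(1) replicate 3 was the low library in 5 of them. It was at 3.66 CPM for *dpr18* (others 5.55 to 6.31), 9.62 for *dpr20* (16.3 to 19.4), 11.7 for *DIP-gamma* (22.8 to 24.3), 6.96 for *DIP-theta* (13.04 to 15.8) and 7.70 for *beat-Vb* (9.64 to 10.2). This library also had the lowest member median of all 15, at -0.55 relative to the mean library, and the call of *dpr18* and *dpr20* as lower was made with it included. *CBS-/-*(8) replicate 5 was low for *dpr7*, at 4.69 CPM (12.9 to 15.1), and for *beat-VII*, at 1.63 (2.24 to 2.48). *CBS-/-*(8) replicate 1 was low for *beat-IIIc*, at 0.746 CPM (1.91 to 2.48), on 5 counts. No member had an interaction of both deletions past the threshold.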

How the results depend on the processing

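Several members had under 20 counts in every library, and every call of a member was lost without at least 1 of the libraries. No direction of a called member reversed under any alternative run. Of 162 values of called members and of *cDIP* under alternatives other than leaving out a library, 111 stayed past the threshold and 51 did not, and of 137 values with a library left out 52 did. At an adjusted p under 0.01, 0 members were lower in *CBS-/-*(5), in *CBS-/-*(8) and between double deletion and *CBS-/-*.

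In *CBS-/-*(5), 0 members were lower with DESeq2, no filter, thinned libraries or 1 fit of 15 libraries, and members called higher were 1 with RLE or with at least 10 counts in every library, and 2 with DESeq2 or length offsets. Leaving out a library gave 0 to 13 higher, 0 lower and medians of 0.234 to 0.937. In *CBS-/-*(8), 0 were lower with DESeq2, thinned libraries or 1 fit, and leaving out a library gave 0 to 1 lower, 0 to 1 higher and medians of 0.003 to 0.71. In *CBS-/-CSE-/-*(1), 1 was lower with DESeq2, no filter, 10 counts in every library or 1 fit, and leaving out a library gave 0 to 1 lower and medians of -0.48 to 0.315. In *CBS-/-CSE-/-*(2), lower were 2 with no filter and 1 with 10 counts in every library or with 1 fit, and medians were -0.531 to 0.363. In *CSE-/-* medians were -0.232 to 0.497. Between double deletion and *CBS-/-* the 11 members lower became 4 with no filter, 4 with length offsets, 5 in thinned libraries and 3 in 1 fit. The count ran from 0 to 14 over all alternatives other than leaving out a library, and from 0 to 18 with a library left out. The interaction gave 0 to 1 lower and medians of -1.144 to -0.168 with a library left out. The cause of these changes was not tested.

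Whether replicate numbers pair the libraries cannot be decided here. Deviations from the strain mean were correlated between same-numbered libraries of the control and of another strain. The values were -0.145 in *CBS-/-*(5), 0.246 and 0.357 in *CBS-/-CSE-/-*(1) and 0.063 and -0.542 in *CSE-/-*. The deviations of the 2 control libraries mirror each other, so these values are not independent. With a replicate block, 6 members were higher in *CBS-/-*(5), 2 were lower in *CBS-/-CSE-/-*(1) and 0 were lower between double deletion and *CBS-/-*. A crossed replicate block in *CBS-/-*(5), added after the data were seen, gave 16 higher. The shares of all genes called in these block fits are not given here, so these counts have no background beside them. *CBS-/-*(8) and *CBS-/-CSE-/-*(2) share fewer than 2 numbers with the control, so no block was fitted for them.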
